A study of Mus musculus with 9 samples.

Results

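Dusp1, Dusp2, Dusp4, Dusp5, Dusp6 and Dusp16 encode MAP kinase phosphatases, and their transcripts were followed in mouse neutrophils held in gels of 3 stiffnesses. They are 6 of the 22173 genes listed for each library, taken from the files by symbol, and the set was chosen with earlier results of these data known. All 6 were measured in all 9 libraries and passed the filter on low counts, with 352 to 47691 counts per gene and library. MAP kinases relay growth factor, stress and cytokine signals, and are active only while a threonine and a tyrosine in their activation loop are phosphorylated. MAP kinase phosphatases remove both phosphates, and many of their genes are themselves switched on by MAP kinase signalling, which makes them feedback inhibitors. In myeloid cells they limit ERK, p38 and JNK activity after inflammatory stimulation, and Dusp1 is the member best known for restraining cytokine production.

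The cells were wild-type primary neutrophils from mouse bone marrow, encapsulated in a hydrogel of gelatin methacryloyl (GelMA, gelatin that is crosslinked to a chosen stiffness) and kept for 2 days in RPMI medium containing fetal bovine serum. All 3 groups share the genotype, the gel material and the medium, and differ in elastic modulus: low (1.5 kPa, the control), middle (2.6 kPa) and high (5.7 kPa), with 3 libraries each, numbered 1 to 3. The series title asks how substrate stiffness acts on neutrophil polarization. The sources used here do not give the purity of the cells, the sex, age or number of the mice, or whether libraries of a group came from separate animals or cultures. The p-values therefore reflect the spread among these libraries alone, and that spread may be technical.

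Total counts were 13172879 to 19486546 per library. Replicate 1 of each group stood apart from the other libraries along the first principal component, which took up 68.1% of the variance. The summed level of 12 neutrophil markers was 3602 to 5006 CPM (counts divided by the TMM-scaled library total) in the replicate 1 libraries and 16864 to 24854 CPM in the other 6. The summed level of 11 macrophage markers was 7131 to 8363 CPM in replicate 1 and 5104 to 8631 CPM in the others, but its members differed: Gpnmb made up 4562 to 5709 CPM of it in replicate 1 against 1165 to 3420 in the others, while Apoe was at 88.1 to 211 CPM in replicate 1 against 525 to 1482. By stiffness the macrophage sum was 8363 to 8631 CPM in low, 6053 to 7131 in middle and 5104 to 7619 in high, and the neutrophil sum 3602 to 24854, 4906 to 22327 and 5006 to 17469. No marker of either list was at 0 in every library, which by itself does not show which cells were present. The measurements below are of whole cultures, and in such bulk samples fewer cells of a type and less RNA per cell cannot be told apart. Each comparison is therefore given from a fit with no term for the replicate number and from a fit with the number as a block. The fit without the block was set as the main fit and the block as an alternative. In the main fit 0 of the 6 members passed between high and low. "Rose" and "fell" below mean an adjusted p under 0.05 in the fit with the block, and n is 3 libraries per group.

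Dusp1 dominated the family. Compared per exonic length, in the deposited FPKM (counts scaled by library total and by exonic gene length), Dusp1 averaged 962 FPKM over the 9 libraries, with a range of 642 to 1339. Dusp5 followed with a mean of 64.1 FPKM (51.8 to 73.4), then Dusp6 with 45.7 (26.7 to 65.6) and Dusp16 with 35.9 (13.3 to 90.0). Dusp2, with 24.4 FPKM (13.4 to 36.6), and Dusp4, with 21.6 FPKM (8.89 to 42.2), were lowest. In each stiffness group the lowest Dusp1 library lay above the highest library of every other member, and every other pair of neighbours in the order overlapped between libraries. The order below Dusp1 was Dusp5, Dusp6, Dusp4, Dusp2 and Dusp16 by group mean in low, and Dusp5, Dusp16, Dusp6, Dusp2 and Dusp4 in high, so that Dusp16 moved from the last place to the third. The other 4 MAP kinase phosphatase genes were far lower: mean FPKM was 7.50 for Dusp7, 0.826 for Dusp10, 0.814 for Dusp8 and 0.0367 for Dusp9, which did not pass the filter.

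The 250 bases before the start of 5 of the 6 genes were found among the 32851 promoter windows of RefSeq on build GRCm38.p6, with Dusp4 the exception. They are shown for the 4 genes that passed the edgeR test between high and low stiffness with the replicate block. No member passed that test without the block. Sequences run 5′ to 3′ on the strand of the gene. Capitals mark matches, on either strand, to the cyclic AMP response element (CRE) TGACGTCA, its core TGACG, the AP-1 site TGANTCA, the CArG box or the NF-kB site.
Dusp1: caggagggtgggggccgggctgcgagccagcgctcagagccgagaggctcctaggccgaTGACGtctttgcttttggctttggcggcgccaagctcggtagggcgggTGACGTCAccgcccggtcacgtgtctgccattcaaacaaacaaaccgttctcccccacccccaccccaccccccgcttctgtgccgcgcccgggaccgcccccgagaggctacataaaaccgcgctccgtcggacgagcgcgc
Dusp2: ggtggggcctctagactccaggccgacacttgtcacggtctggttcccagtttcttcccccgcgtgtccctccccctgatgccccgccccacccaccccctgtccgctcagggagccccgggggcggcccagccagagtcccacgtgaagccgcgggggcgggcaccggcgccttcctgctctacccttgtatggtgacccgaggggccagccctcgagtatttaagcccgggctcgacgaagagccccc
Dusp6: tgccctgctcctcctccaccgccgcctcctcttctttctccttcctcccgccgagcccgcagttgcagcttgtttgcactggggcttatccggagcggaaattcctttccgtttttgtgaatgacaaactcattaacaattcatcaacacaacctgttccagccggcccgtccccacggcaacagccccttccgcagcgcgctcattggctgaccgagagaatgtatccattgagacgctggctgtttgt
Dusp16: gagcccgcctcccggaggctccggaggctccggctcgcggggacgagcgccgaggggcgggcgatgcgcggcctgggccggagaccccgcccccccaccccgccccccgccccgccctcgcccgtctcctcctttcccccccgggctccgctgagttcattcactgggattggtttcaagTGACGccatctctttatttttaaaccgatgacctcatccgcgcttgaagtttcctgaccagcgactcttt
The Dusp1 window is chr17:26508473-26508722 on the minus strand, Dusp2 is chr2:127335909-127336158 and Dusp6 is chr10:99262981-99263230 on the plus strand, and Dusp16 is chr6:134792629-134792878 on the minus strand. Dusp1 held the full CRE 143 to 136 bases before the start, which 1.55% of all windows hold, and a further core 191 to 187 bases before it. Dusp16 held 1 core, 70 to 66 bases before the start, a match found in 17.8% of all windows. Dusp2 and Dusp6 held none of these matches. Dusp5, whose window is chr19:53528895-53529144 on the plus strand, held adjacent CArG boxes at 82 to 73 and 72 to 63 bases before the start (1.47% of all windows hold at least 1) and a core at 55 to 51. The AP-1 site, the NF-kB site and the ETS motif CCGGAAG, present in 6.75%, 3.90% and 6.91% of all windows, matched none of the 5. GC content was 68.4% in the Dusp1 and Dusp16 windows, 70.4% in Dusp2, 64.0% in Dusp5 and 56.4% in Dusp6, against a median of 52.4% over all windows. The sequences show these letters only, and binding was not measured.

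Between high and low stiffness, the members moved in both directions. Dusp16, a phosphatase directed at JNK and p38, was 1.54- to 7.18-fold higher in high than in low within each replicate number, and Dusp2, a nuclear phosphatase induced in activated leukocytes, was 1.17- to 1.87-fold higher. Dusp6, the cytoplasmic ERK phosphatase, and Dusp1 were lower within every number, as were 24.8% of tested genes. Dusp16, Dusp2 and Dusp4 were higher within every number, as were 23.7%. With the replicate block 4 of the 6 members passed the test, Dusp16 and Dusp2 higher and Dusp6 and Dusp1 lower, where 15.5% of the 12094 tested genes passed (6.72% higher and 8.73% lower). Without the block 0 of 6 passed by edgeR (0.091% of all genes), with Dusp1 and Dusp16 at an unadjusted p under 0.05 (7.72% of all genes), and DESeq2 without the block called Dusp16 alone (2.75% of all genes). DESeq2 with the block called the 4 members that edgeR called with it (15.7% of all genes). The median log2 difference of the 6 was 0.33, beside -0.0026 over all tested genes.

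**Figure D1:**
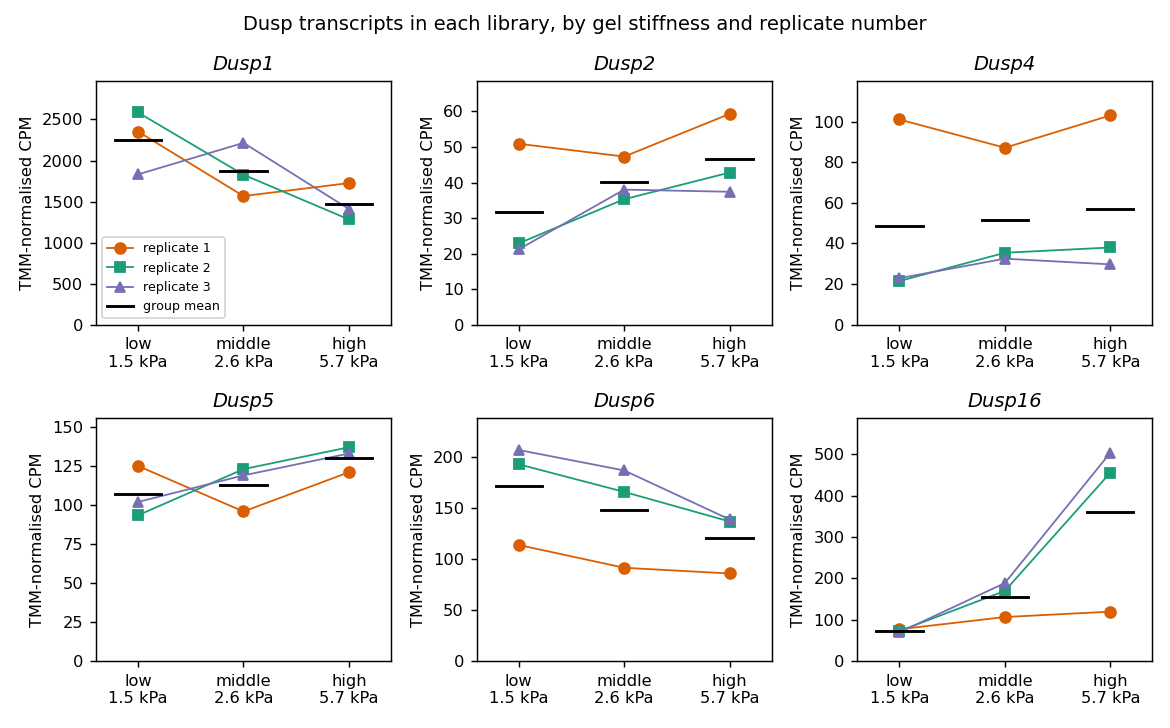
TMM-normalised CPM (y axis, from 0, a different scale in each panel) of the 6 Dusp genes in low, middle and high stiffness gels (x axis), 1 point per library joined by replicate number, with black bars at group means. Dusp16 is higher at each step in every number, from 70.1 to 77.6 CPM in low to 120, 455 and 503 in high, Dusp6 is lower at each step in every number, and Dusp4 separates by replicate number.

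Of the nuclear, inducible members, Dusp1 acts on p38, JNK and ERK and is an immediate early gene. Dusp1 measured 2352, 2585 and 1831 CPM in low replicates 1 to 3, 1567, 1827 and 2215 in middle, and 1725, 1282 and 1409 in high. Every high library lay below every low library, as was the case for 6.76% of tested genes, while the middle libraries overlapped both. The group means ± SD were 2256 ± 386, 1870 ± 326 and 1472 ± 228 CPM. Dusp1 was lower in high by a log2 difference of -0.62 ± 0.22 (SE; edgeR adjusted p = 0.49) without the block and of -0.62 ± 0.18 (adjusted p = 0.0481) when the block was fitted. The call with the block was lost when low replicate 1 or 2, middle replicate 2 or high replicate 2 or 3 was left out (adjusted p 0.0972 to 0.24).

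Dusp2, which inactivates ERK and p38 in the nucleus, measured 50.9, 22.9 and 21.2 CPM in low, 47.3, 35.3 and 38.0 in middle, and 59.3, 42.8 and 37.4 in high. Replicate 1 was the highest library of each group, and the groups overlapped because low replicate 1 exceeded 2 of the 3 high libraries. Within numbers the log2 differences of high from low were 0.22, 0.90 and 0.81, and the fit gave 0.56 ± 0.35 (edgeR adjusted p = 0.854) without the block and 0.63 ± 0.16 (0.0277) in the blocked fit. The call was lost without low replicate 2 or 3, middle replicate 2 or high replicate 2 or 3 (adjusted p 0.0548 to 0.137).

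Dusp4, a nuclear phosphatase of ERK and JNK, differed mainly by replicate number. It measured 101, 21.5 and 22.9 CPM in low, 87.1, 35.4 and 32.5 in middle, and 103, 38.0 and 29.7 in high. The 3 replicate 1 libraries were at 87.1 to 103 CPM and all 6 others at 21.5 to 38.0, so the groups overlapped throughout. High minus low within numbers was 0.02, 0.82 and 0.37, and the fits gave 0.23 ± 0.74 (edgeR adjusted p = 0.994) and, with the block, 0.38 ± 0.17 (0.164).

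Dusp5, a nuclear phosphatase selective for ERK, had the narrowest range of the 6 as a ratio of highest to lowest library. It measured 125, 93.5 and 102 CPM in low, 95.9, 123 and 119 in middle, and 121, 137 and 133 in high. Replicates 2 and 3 were higher in high than in low, by 0.55 and 0.39 on the log2 scale, while replicate 1 differed by -0.04. The fits gave 0.29 ± 0.16 (edgeR adjusted p = 0.77) without the block and 0.29 ± 0.13 (0.158) in the blocked fit. Without low replicate 1, the highest low library for Dusp2, Dusp4 and Dusp5, the blocked fit also called Dusp4 (0.65, adjusted p = 0.00181) and Dusp5 (0.50, adjusted p = 0.00168).

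Dusp6, the cytoplasmic phosphatase selective for ERK and a classic readout of ERK signalling, measured 114, 193 and 207 CPM in low, 91.7, 166 and 187 in middle, and 86.1, 137 and 139 in high. Replicate 1 was the lowest library of each group, and the groups overlapped only through it. Within each of the 3 replicate numbers Dusp6 was lower in middle than in low and lower again in high, a pattern found in 5.61% of tested genes, and high minus low was -0.40, -0.50 and -0.57. The difference was -0.50 ± 0.34 (edgeR adjusted p = 0.871) without the block and -0.49 ± 0.08 (0.00318) in the blocked fit. Dusp6 was called in all 9 blocked fits that left out 1 library (-0.55 to -0.43, adjusted p 0.0014 to 0.0388).

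Dusp16, also known as MKP-7, a phosphatase of JNK and p38, showed the widest range of the 6 as a ratio of highest to lowest library. It measured 77.6, 73.2 and 70.1 CPM in low, 107, 170 and 189 in middle, and 120, 455 and 503 in high. All middle and all high libraries lay above all low libraries, whereas high replicate 1 lay below middle replicates 2 and 3. Groups that do not overlap, higher in high, were found for 5.9% of tested genes, and a higher value at each step within every number for 5.1%. The group means ± SD were 73.6 ± 3.75, 155 ± 43.4 and 360 ± 209 CPM. The log2 difference of high from low was 2.29 ± 0.49 (edgeR adjusted p = 0.211) without the block and 2.08 ± 0.48 (0.0499) in the blocked fit. By the blocked value it took rank 29 of 12094 genes from the highest. DESeq2 gave 2.30 ± 0.49 (adjusted p = 0.000461) without the block and 2.08 ± 0.48 (0.000253) in the blocked fit. The edgeR call with the block held without low replicate 1 or high replicate 1 and was lost without any of the other 7 libraries (adjusted p 0.0699 to 0.178).

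The fit of replicates 2 and 3 alone held 6 libraries and 3 residual degrees of freedom, and its standard errors reflect the spread among those libraries only. In it all 6 members passed the test between high and low, where 26.3% of genes did. The log2 differences there were 2.74 ± 0.09 for Dusp16, 0.86 ± 0.10 for Dusp2, 0.61 ± 0.12 for Dusp4, 0.47 ± 0.08 for Dusp5, -0.54 ± 0.08 for Dusp6 and -0.72 ± 0.15 for Dusp1. The blocked fit of high against low over all 9 libraries called 15.5% of tested genes, 6.72% higher and 8.73% lower. In that blocked fit 1 of the 12 neutrophil markers was higher and 3 lower, and 2 of the 11 macrophage markers were higher and 5 lower. Lower in high were also 2 of 3 monocyte markers, 2 of 6 eosinophil, basophil or mast cell markers, 2 of 4 stromal or endothelial markers, and 1 each of 4 dendritic cell, 2 osteoclast and 4 megakaryocyte markers, with none higher. The part of these marker levels in the Dusp differences was not tested.

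Middle and high stiffness share the low libraries as their control, so the values are set side by side. Between middle and low 0 of the 6 members passed by edgeR without the block (0% of genes, and 0 members at an unadjusted p under 0.05 against 2.63% of genes) or with it (1.84% of genes). The blocked log2 differences of middle from low were 0.98 ± 0.46 for Dusp16 (adjusted p = 0.435), 0.44 ± 0.16 for Dusp2 (0.249), 0.31 ± 0.17 for Dusp4 (0.459), 0.07 ± 0.13 for Dusp5 (0.866), -0.22 ± 0.08 for Dusp6 (0.236) and -0.27 ± 0.18 for Dusp1 (0.567). Dusp16 alone had groups that did not overlap (3.56% of genes, higher). Within numbers Dusp16 was 1.37-, 2.33- and 2.70-fold higher in middle than in low, and Dusp6 lower by -0.31, -0.22 and -0.14 on the log2 scale, while Dusp1 was lower in replicates 1 and 2 (-0.59 and -0.50) and higher in replicate 3 (0.27). In replicates 2 and 3 alone Dusp16 (1.32), Dusp2 (0.73), Dusp4 (0.62) and Dusp5 (0.30) passed, where 6.42% of genes did.

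Between high and middle again 0 of 6 passed by edgeR, without the block (0% of genes; Dusp16 alone at an unadjusted p under 0.05, against 1.48% of genes) or with it (0.0165% of genes). Dusp16 had a blocked log2 difference of 1.10 ± 0.45 (adjusted p = 0.499) and Dusp6 of -0.27 ± 0.08 (0.296). Within numbers Dusp16 was 1.13-, 2.67- and 2.66-fold higher in high than in middle, with replicate 1 the smallest. In replicates 2 and 3 alone Dusp16 (1.42 ± 0.08, adjusted p = 1.12e-05) and Dusp6 (-0.35 ± 0.08, 0.0205) passed, where 6.88% of genes did. No member had groups that did not overlap at this step, which 5.08% of genes had.

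**Figure D2:**
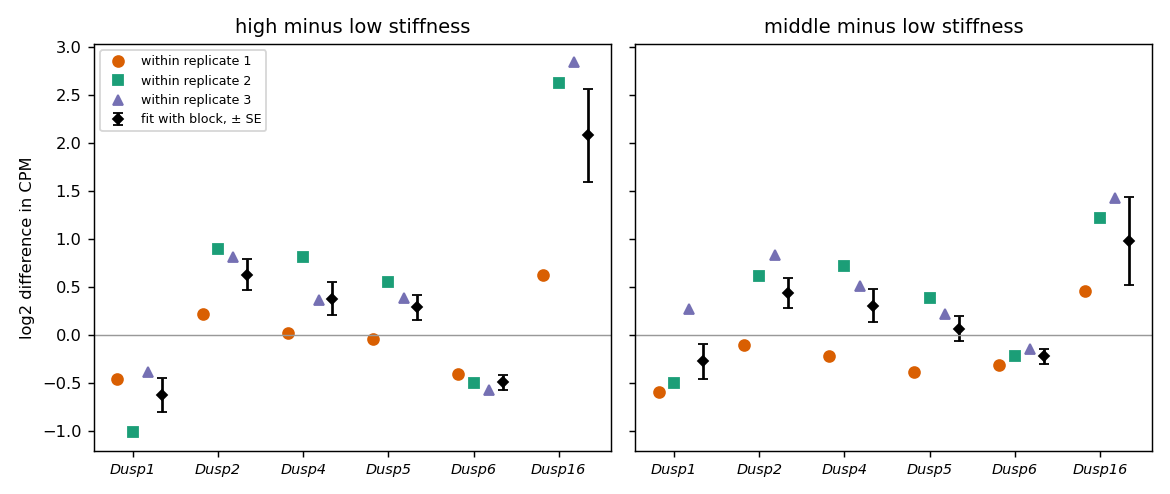
Log2 difference in CPM of high from low (left) and middle from low (right) for each Dusp gene, within replicate 1, 2 and 3 (coloured symbols) and from the edgeR fit with the replicate block (black diamonds, bars ± SE). For Dusp16 replicate 1 lies at 0.63 and replicates 2 and 3 at 2.63 and 2.84 in the left panel, while the 3 Dusp6 points lie together.

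Replicate number separated 3 of the 6 members, a share no larger than that of all tested genes. Of all tested genes 65.4% differed between replicate 1 and replicates 2 and 3 (32.9% higher and 32.5% lower). Dusp4 was higher in replicate 1 by 1.73 ± 0.14 on the log2 scale (edgeR adjusted p = 5.04e-06) and Dusp2 by 0.72 ± 0.14 (0.000991), and Dusp6 was lower by -0.81 ± 0.07 (2.84e-06). Dusp1 (0.04 ± 0.15), Dusp5 (-0.04 ± 0.11) and Dusp16 (-0.81 ± 0.41, adjusted p = 0.145) did not pass. These 3 calls were made in each of the 9 fits that left out 1 library, and Dusp5 (-0.24) and Dusp16 (-1.34) were called as well without low replicate 1. Of the 12 neutrophil markers 11 were lower in replicate 1 and of the 11 macrophage markers 7 were lower and 2 higher. All 5 B or plasma cell markers, all 4 megakaryocyte markers, 2 of 3 monocyte markers and 3 of 6 eosinophil, basophil or mast cell markers were lower as well, and 2 of 5 erythroid markers were higher. Their part in the Dusp differences was not tested.

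The stiffness difference of Dusp16 itself depended on the replicate number. High minus low was larger in replicates 2 and 3 than in replicate 1 by 2.11 ± 0.15 on the log2 scale (edgeR interaction, adjusted p = 1.79e-05), and remained called in all 6 fits that left out a library of replicate 2 or 3 (2.04 to 2.16) and by DESeq2 (2.10). The same interaction was 0.64 ± 0.17 for Dusp2 (0.0418) and 0.51 ± 0.13 for Dusp5 (0.0331), while Dusp4 (0.60 ± 0.19, 0.078), Dusp1 (-0.27 ± 0.26, 0.588) and Dusp6 (-0.13 ± 0.14, 0.629) did not pass. Replicate 1 holds 1 library per group, so this test takes its spread from replicates 2 and 3. In it 3 of the 6 were called, all higher, where 8.36% of genes were called and 5.84% were higher. DESeq2 called neither Dusp2 (adjusted p = 0.134) nor Dusp5 (0.097). The Dusp2 call was kept only without high replicate 3 (the other 5 fits gave adjusted p 0.0599 to 0.116), and Dusp5 lost its call without low replicate 2 or 3 or middle replicate 2 or 3 (0.0583 to 0.167).

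Within each replicate number, Dusp1 held less and Dusp16 more of the summed level of the family in high than in low. The shares are described and were not tested. Of the summed FPKM of the 10 MAP kinase phosphatase genes, Dusp1 held 85.7, 89.2 and 84.9% in low replicates 1 to 3, 82.2, 82.7 and 84.8% in middle, and 81.4, 72.5 and 74.2% in high. Dusp16 held 1.02, 0.911 and 1.17% in low, 2.01, 2.78 and 2.61% in middle, and 2.04, 9.27 and 9.55% in high. Among the 10 genes Dusp16 took place 2 in high replicates 2 and 3, place 6 in replicate 1 of every group and place 5 in low replicates 2 and 3. The summed FPKM of the 10 genes was 1133 to 1500 in low, 1004 to 1340 in middle and 885 to 1089 in high.

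**Figure D3:**
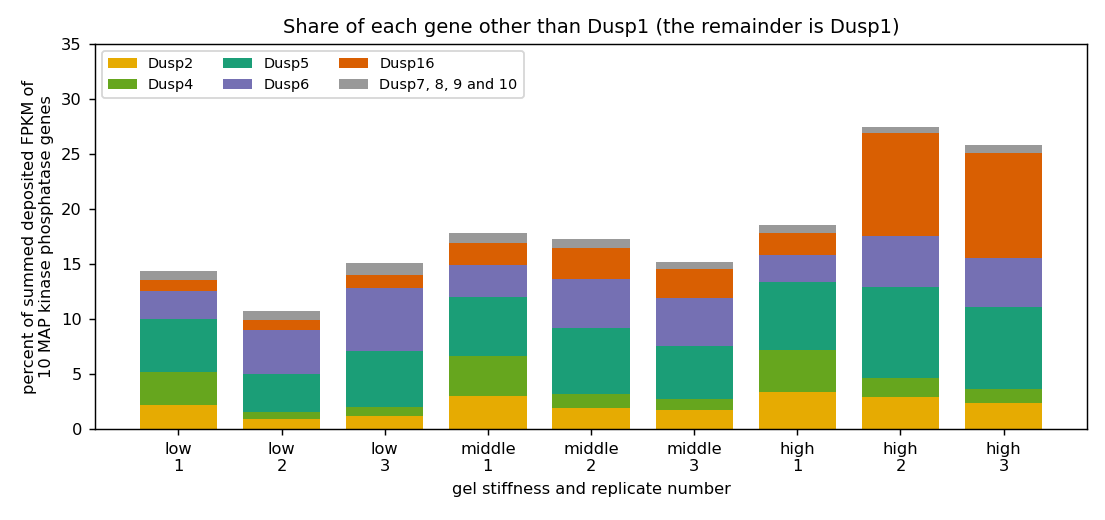
Stacked shares, in percent of the summed deposited FPKM of 10 MAP kinase phosphatase genes (y axis, from 0), of every gene but Dusp1 in each library (x axis, group and replicate number); the rest up to the full sum is Dusp1. From low to high the Dusp16 segment goes from 1.02 to 2.04% in replicate 1, from 0.911 to 9.27% in replicate 2 and from 1.17 to 9.55% in replicate 3, and Dusp4 is widest in replicate 1 of each group.

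Among the family genes outside the 6, Dusp7, a cytoplasmic ERK phosphatase close to Dusp6, fell as well. Dusp7 measured 29.0, 33.3 and 32.0 CPM in low, 23.0, 25.1 and 23.6 in middle, and 19.6, 12.2 and 18.3 in high. The 3 groups did not overlap and each number was lower at each step of stiffness. A lower value at each step in every number was found for 5.61% of tested genes. Every high library lay below every low library for 6.76%. The blocked difference of high from low was -0.93 ± 0.16 (edgeR adjusted p = 0.00331), and without the block it was -0.91 ± 0.19 (0.191). The JNK and p38 phosphatases Dusp8 (-0.23 ± 0.25) and Dusp10 (-0.13 ± 0.18), relatives of Dusp16, did not pass. Of the 13 tested atypical dual-specificity phosphatases, which lack a MAP kinase binding domain, 0 rose and 0 fell (median -0.18), the most abundant 2 of them being Dusp11 (-0.02 ± 0.08) and Dusp3 (-0.04 ± 0.12).

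Among the kinases of the cascade, those that passed the test differed by 0.35 to 0.67 in size on the log2 scale. With the block 15.5% of all tested genes were called, with a median of -0.0026, which is the background for the counts and medians of these lists. Of the 11 tested MAP kinases 0 rose and 0 fell (median 0.00062). Mapk14, which encodes p38 alpha, had a difference of 0.25 ± 0.09 (adjusted p = 0.0752). Of the 7 MAP kinase kinases 2 rose (median 0.18), Map2k3, which activates p38, by 0.49 ± 0.11 and Map2k1, which activates ERK, by 0.36 ± 0.09. Of the 19 tested MAP3 and RAF kinases 1 rose and 2 fell (median -0.01): Map3k4 (0.48 ± 0.11), Map3k1 (-0.48 ± 0.09) and Map3k20 (-0.56 ± 0.14). Of 10 kinases that MAP kinases activate, 2 rose and 2 fell (median 0.03). Mapkapk2, the p38 target kinase MK2, measured 640, 650 and 611 CPM in low, 887, 756 and 800 in middle, and 966, 1070 and 979 in high. Its 3 groups did not overlap, and it rose by 0.67 ± 0.09 (edgeR adjusted p = 0.00114). Every high library lay above every low library for 5.9% of tested genes. Rps6ka4 rose by 0.35 ± 0.09, and Rps6ka2 (-0.46 ± 0.10) and Mknk2 (-0.36 ± 0.09) fell.

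Inhibitors of the RAS-ERK route and transcripts that ERK induces are read against the same 15.5% of all genes. Of 10 tested inhibitors 1 rose and 1 fell (median 0.03), Spred2 by 0.72 ± 0.16 and Rasa1 by -0.35 ± 0.09. Of 24 tested ERK-induced transcripts 3 rose and 2 fell (median 0.01). Phlda1 measured 44.3, 26.0 and 34.3 CPM in low, 85.7, 80.9 and 71.6 in middle, and 143, 109 and 145 in high, and rose by 1.94 ± 0.13. Its groups did not overlap, where 5.9% of tested genes had every high library above every low library. Fosl1 (2.11 ± 0.30), an AP-1 subunit at 1.96 to 15.3 CPM, and Ier3 (0.61 ± 0.10) also rose. Fos fell by -0.79 ± 0.20 and Jun by -0.83 ± 0.18, both AP-1 subunits. The other 19 transcripts of the list did not pass, among them Egr1 (-0.21 ± 0.27) and Junb (0.23 ± 0.13). Jun measured 764, 594 and 439 CPM in low, 584, 333 and 331 in middle, and 647, 235 and 230 in high, so its groups overlapped. Fos measured 2067, 1978 and 1314 CPM in low, 1484, 1330 and 1621 in middle, and 1457, 842 and 844 in high, so its highest high library overlapped the lowest low one. Between middle and low Phlda1 (1.22), Fosl1 (1.39) and Ier3 (0.47) were the only genes of the 8 lists that passed with the block, and between high and middle none did. Without the block Phlda1 was the only gene of the 8 lists called between high and low.

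**Figure D4:**
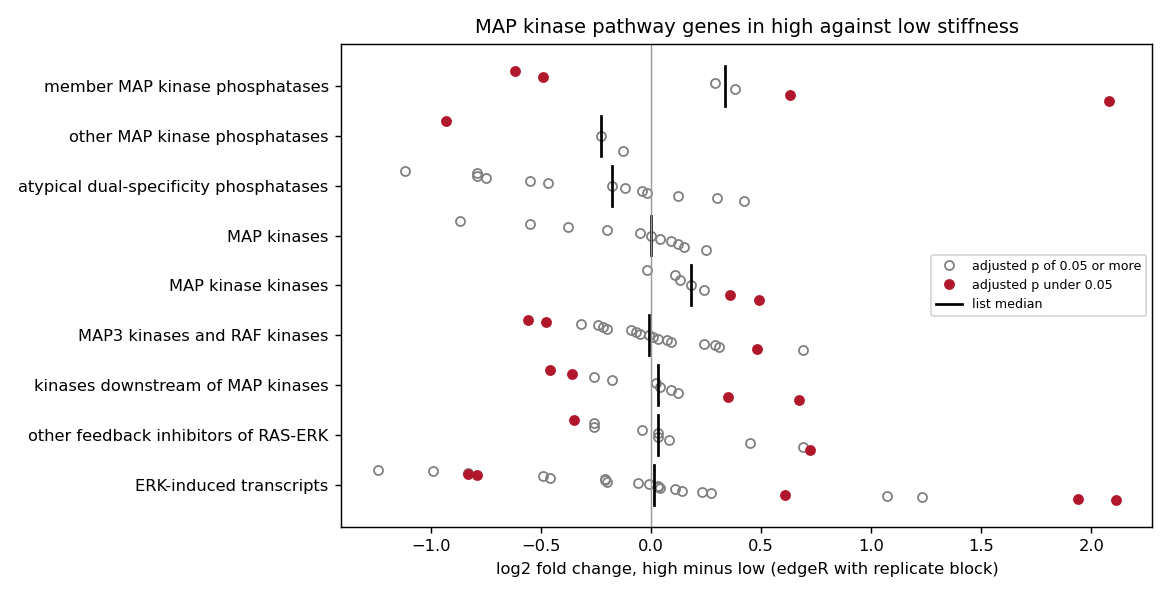
Log2 fold change of high from low stiffness (x axis, edgeR with the replicate block) for each tested gene of 9 MAP kinase pathway lists (rows), filled red where the adjusted p is under 0.05, with a black bar at the list median. The 6 Dusp genes spread from -0.62 to 2.08, and the medians of the other lists lie between -0.23 and 0.18.

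Where 8.36% of all genes were called in the interaction with replicate number, and 5.84% higher, 3 of the 10 tested inhibitors of the route were called higher, Spred1 (0.76, edgeR adjusted p = 0.0068), Errfi1 (1.32, 0.00759) and Spred2 (0.84, 0.0428). Of the 24 ERK-induced transcripts 4 were called higher and 2 lower in it. Fosl2 had the smallest adjusted p (1.73, 2.61e-05): it measured 190, 225 and 245 CPM in low, 168, 467 and 451 in middle, and 201, 818 and 837 in high. Replicate 1 was between 168 and 201 CPM at every stiffness, near the 3 low libraries, and replicates 2 and 3 were higher in middle and in high. The median interaction was 0.80 for the inhibitors and 0.29 for the ERK-induced transcripts, beside 0.01 over all tested genes. It was 0.31 for MAP kinase kinases, 0.22 for MAP3 and RAF kinases and 0.11 for downstream kinases. MAP kinases had -0.14, atypical phosphatases 0.17 and the other MAP kinase phosphatases -0.04. For Map2k3 the interaction was 0.52 and for Jun -0.91.

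The genes whose log2 CPM ran most closely with each member over the 9 libraries were ranked among the 9188 genes that averaged 5 CPM or more. Such correlations describe the libraries, which share the split between replicate 1 and the others, and the top of so long a ranking is high by construction. For Dusp16 they were Nlrp3 (r = 0.992), the sensor of an inflammasome, Acod1 (0.990), which makes itaconate, and Isca1 (0.989). After the mean of each replicate number was subtracted they were Lcp1 (0.999), Tox4 (0.998) and Clec4e (0.996). For Dusp1 they were Zfp955b (0.936), Gmnn (0.932) and Fos (0.910), and after subtraction Fos (0.982), Chpt1 (0.965) and Ccl2 (0.963), so Fos was among the 3 by both measures. For Dusp6 they were Gyg (0.993), Dram2 (0.991) and Scnn1a (0.990), and after subtraction Abi3 (0.996), Grap2 (0.992) and Abhd15 (0.991). Dusp2 ran with Zfp622 (0.964), Rpia (0.963) and Relb (0.963), and after subtraction with Hfe (0.983), Erc1 (0.981) and Asb8 (0.979). Dusp4, whose order follows the replicate number, ran with Efr3b (0.995), Katna1 (0.991) and Rrp1 (0.989), and after subtraction with Abitram (0.970), Ppp2r5e (0.957) and Depp1 (0.951). Dusp5 ran with Psd, Id3 and Errfi1 (each 0.921), and after subtraction with Dnm2 (0.982), Acsl3 (0.966) and Laptm4a (0.964).

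Among the members themselves, after subtraction of the replicate number means, Dusp2 and Dusp4 ran together (r = 0.93 over 9 libraries, 0.88 without subtraction), and Dusp1 ran against Dusp16 (-0.77, and -0.72 without). Dusp5 with Dusp16 (0.77 and 0.74) and Dusp2 with Dusp6 (-0.73 and -0.88) also kept their sign. Other pairs differed more between the measures: Dusp6 with Dusp16 had -0.92 after subtraction and -0.04 without, Dusp4 with Dusp5 0.89 and 0.16, Dusp2 with Dusp16 0.89 and 0.26, and Dusp1 with Dusp6 0.87 and 0.36. Dusp4 with Dusp16 alone changed sign, with 0.75 after subtraction and -0.19 without. Many other genes ran as closely with some of the members: from 41 (Dusp4) to 607 (Dusp16) of the 9188 genes reached at least 0.9 with a member after subtraction, and from 6 (Dusp1 and Dusp5) to 1369 (Dusp4) without.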

How the data were processed

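The deposited files give, for each of 9 libraries, the authors' raw counts for 22173 genes, with no normalization, the authors' FPKM, and, as another unit, an exonic size in bases for each gene, per the file headers. Libraries were stranded poly(A) libraries, per the labels' protocols. The authors used HISAT2 2.0.1, HTSeq 0.6.1, cutadapt 1.9.1 and DESeq2, with build GRCm39, per the submitters' processing notes. The sources used here do not give their parameters. The deposited FPKM equalled FPKM recomputed from the counts and sizes within 0.005. It served to compare levels between genes and for the family sums and shares in each library. It is scaled by library total and not by TMM.

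Counts were fitted with edgeR 4.0.16 in R 4.3.3 over all 9 libraries (TMM, filterByExpr, robust quasi-likelihood, 12094 genes tested and 4937 at 0 in every library), with two-sided tests and Benjamini-Hochberg adjustment over all tested genes at 0.05. DESeq2 1.42.0 was an alternative. Standard errors were obtained as the absolute log2 fold change over the square root of F. The script was tested on simulated data. Figures used Python 3.11.15, pandas 2.3.3 and matplotlib 3.10.9.

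Libraries with the same replicate number deviated together from their group means (r = 0.595 to 0.856, 9 pairs), which met the condition for a replicate block, but replicates 2 and 3 of different groups did too (0.552 to 0.698, 6 pairs) while replicate 1 opposed both (-0.777 to -0.65, 12 pairs). Deviations within a group cancel out, so with replicate 1 far apart, replicates 2 and 3 deviate alike largely by arithmetic. These correlations therefore cannot show what replicates 2 and 3 share, and the labels do not say what a number shares. The coefficient of biological variation fell from 0.337 to 0.115 when the block was fitted. The fits tried besides these used DESeq2 size factors, no filter, a block of 2 levels, replicates 2 and 3 alone, and each library left out in turn. Fits combining the block with DESeq2 size factors or with no filter were added after seeing the data.

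The members, gene lists and marker lists were chosen with earlier results of these data known. The text names all members, up to 4 called genes of each list by smallest adjusted p in the blocked fit (or the 2 with the highest mean CPM where none was called), and the 3 genes most correlated with each member. A gene that this rule names is not reported here.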

Additional observations from a re-analysis of the deposited data

Results flagged for a closer look

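The difference between high and low stiffness was not the same in replicates 2 and 3 as in replicate 1 for 3 of the 6 Dusp genes, by the edgeR test of the difference itself, which called 8.36% of all tested genes (5.84% higher). Replicate 1 holds 1 library per group in this test. It was larger in replicates 2 and 3 by 2.11 on the log2 scale for Dusp16 (adjusted p = 1.79e-05), where high minus low was 0.63 in replicate 1 and 2.63 and 2.84 in replicates 2 and 3. It was larger by 0.64 for Dusp2 (0.0418), with 0.22 in replicate 1 and 0.90 and 0.81 in the others. It was larger by 0.51 for Dusp5 (0.0331), with -0.04 in replicate 1 and 0.55 and 0.39 in the others. DESeq2 made the call for Dusp16 alone. Of 6 fits that left out a library of replicate 2 or 3, all kept the call for Dusp16, 1 kept it for Dusp2 (without high replicate 3) and 2 for Dusp5 (without high replicate 2 or 3).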

How the results depend on the processing

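Shares in parentheses are of all tested genes called in the same fit. Between high and low stiffness 0 of the 6 Dusp genes passed without the replicate block (0.091%). With the replicate block 4 passed (15.5%), as with a block of 2 levels (4; 18.8%) and with DESeq2 and the block (4; 15.7%). DESeq2 without the block gave 1 (2.75%), replicates 2 and 3 alone 6 (26.3%), the block with DESeq2 size factors 3 (15.8%), and the block with no filter 2 (10.8%), these last 2 fits being chosen after seeing the data. Leaving out 1 library gave 0 to 1 without the block (0 to 0.334%; 1, Dusp16, without high replicate 1) and 1 to 5 with it (4.91 to 20.1%). Between middle and low, replicates 2 and 3 alone gave 4 (6.42%), and leaving out 1 library with the block 0 to 3 (0.22 to 5.39%). Between high and middle these were 2 (6.88%) and 0 to 1 (0 to 2.45%). Between replicate 1 and the others, leaving out 1 library gave 3 to 5 (54.9 to 64.4%). The interaction gave 1 with DESeq2 (5.65%) and 1 to 4 with 1 library left out (4.18 to 13%). Among the single-gene values 517 kept direction and side of the threshold, 61 were newly called, 11 lost their call and 23 changed sign.

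Those that changed sign were small or belonged to Dusp4. Dusp4 in high against low was -0.11, -0.09 and -0.52 without low replicate 2, low replicate 3 or high replicate 1 (up to 1.36 without low replicate 1). In middle against low it was -0.26, -0.24 and -0.51 without low replicate 2, low replicate 3 or middle replicate 1 (up to 1.21 without low replicate 1). In high against middle it was -0.0062 in replicates 2 and 3 alone, -0.06, -0.11 and -0.61 without middle replicate 2, middle replicate 3 or high replicate 1 (up to 0.75 without middle replicate 1), and with the block -0.10 and -0.03 without middle replicate 1 or high replicate 2. Dusp5 in middle against low was -0.01 without low replicate 2 (up to 0.20), and with the block -0.07 and -0.03 without low or middle replicate 2. Dusp6 in middle against low was 0.04 without middle replicate 1 (down to -0.44), and Dusp2 in high against middle -0.0013 without high replicate 1 (up to 0.35). Against replicate number, Dusp1 was -0.05, -0.13 and -0.04 without low replicate 3, high replicate 1 or high replicate 2 (up to 0.23), and Dusp5 0.11, 0.01 and 0.03 without middle replicate 1, middle replicate 2 or high replicate 1. The cause was not tested. Scaling by DESeq2 size factors moved the median of all genes by at most 0.015 (log2). There were 3 libraries per group, replicate 1 lay apart from the rest, and each member had at least 352 counts per library. The parts of this spread and of the count depth in the precision without the block were not tested.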
